A study of Mus musculus with 27 samples.

Results

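Intestinal gene expression was compared between 3 d and 6 h after a single 15 Gy dose of gamma rays. The comparison used 6 of the 27 libraries of the series, 3 per time. The sample labels set its members: every library labelled 15 Gy with sampling at 6 h or at 3 d. The comparison itself was chosen with earlier results of these data known. Both groups came from wild type male C57BL/6 mice, 6 to 8 weeks old, exposed to a 60Co source at 72 R/min, with no other treatment. In the series as a whole 9 groups of 3 libraries cover an untreated control, 6 Gy and 15 Gy at several times, and CBLB502, a radioprotectant derived from bacterial flagellin, alone or before irradiation. The design text gives 10 mice per group, but neither it nor the labels say whether a library is 1 mouse or a pool, so the p-values below measure the spread between these libraries only. The labels name the tissue as intestine, without the segment, the layer or the hour of day at which it was taken. Levels in the untreated control and at 15 Gy 24 h are given for some genes and lists only, as values without a test. A fall or rise below is therefore against 6 h and not against the control.

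The lining of the small intestine is renewed from dividing cells at the base of the crypts, whose daughters mature into absorptive enterocytes or into secretory goblet, Paneth, enteroendocrine and tuft cells and are shed at the villus tip within days. Ionizing radiation damages the DNA of dividing cells, stabilizes the transcription factor p53 and interrupts that supply, while mature cells continue to be shed. In the days that follow, surviving crypt cells are known to take up programmes of the fetal gut and of Wnt signalling from which the epithelium is rebuilt.

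Total counts ran from 80.5 to 87.1 M per library at 6 h and from 78.95 to 82.2 M at 3 d. The absorptive identity of the tissue was visible at both times: the 21 listed brush-border hydrolases, enzymes on the microvilli of enterocytes, summed to 59024 to 70819.6 CPM (counts scaled to library size, with TMM factors) at 6 h and to 32751 to 45623 CPM at 3 d. The libraries of 15 Gy 6 h stood apart from the other 24 in base composition. The deviation of each gene from its mean over all libraries correlated with the GC content of its longest transcript at a Spearman rho of 0.449 to 0.494 in these 3 libraries, across 11112 genes within a library, against -0.199 to 0.099 in the other 24 and -0.192 to -0.138 at 3 d. Genes at 3 d against 6 h followed that gradient, with a median log2 fold change of 0.94 in the decile of genes with the lowest GC content and -0.47 in the decile with the highest. In the lowest decile 61.9% of genes were higher and 5.22% lower at 3 d, and in the highest decile 4.95% were higher and 44.4% lower. The 6 h libraries also detected fewer genes, 17760 to 18516 against 20353 to 20765 at 3 d. Mitochondrially encoded genes took 6.82% ± 2.22 (SD, n = 3) of counts at 6 h and 9.86% ± 0.73 (SD, n = 3) at 3 d, which do not overlap (exact permutation test, two-sided, p = 0.1, the smallest that 3 against 3 can give). On the TMM scale used for the genes the sums of the 13 protein-coding genes among them overlapped, at 49939 to 96565 CPM at 6 h and 84920.4 to 105546 CPM at 3 d. None of the 13 rose and 1 fell, with a median log2 fold change of 0.47, which turned to -0.34 with 3 lower under the GC offset. What part base composition has in any single difference was not tested. An offset that removes the trend of each library with GC content is named the GC offset. Most list counts and some single genes below are also given with it, and other fold changes are as counted. That offset brought the rho between fold change and GC content from -0.44 to -0.02.

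**Figure D1:**
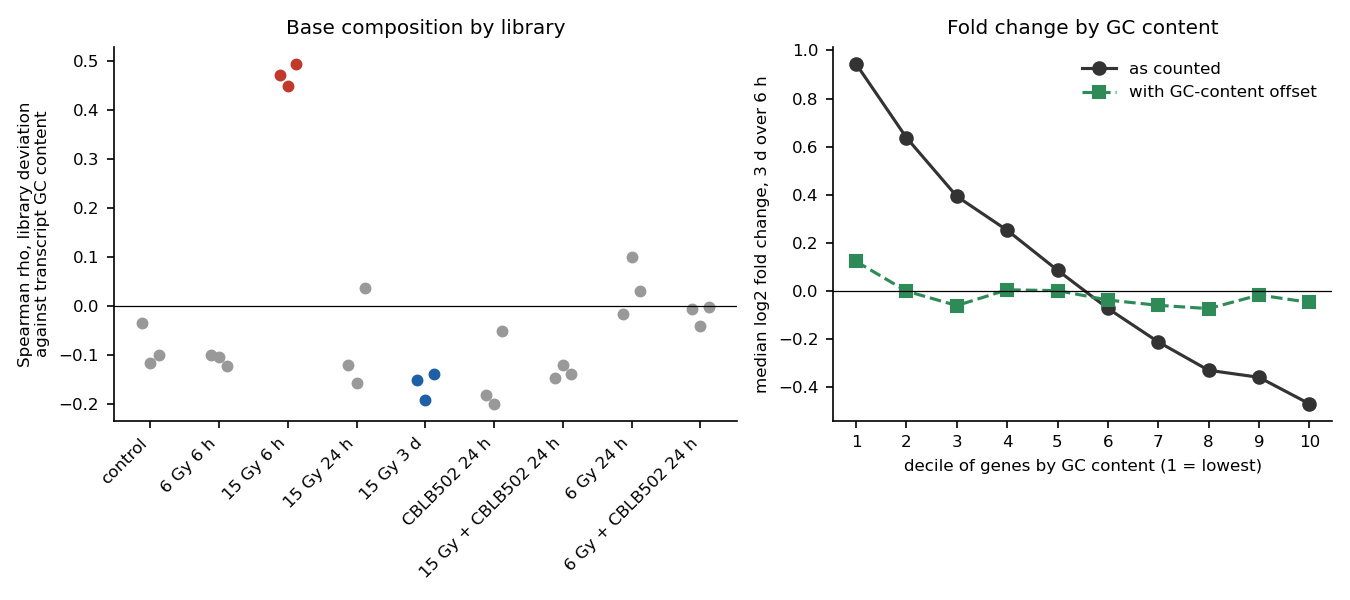
Left, Spearman rho between transcript GC content and each library's deviation from the mean log2 level, 1 point per library in each of the 9 groups. Right, median log2 fold change of 15 Gy 3 d over 15 Gy 6 h in each decile of genes by GC content, as counted and with the GC offset. The 3 libraries of 15 Gy 6 h lie between 0.449 and 0.494, above the other 24, and with the offset the medians of the deciles lie between -0.07 and 0.12, the highest in the decile of lowest GC content.

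Of 11118 genes tested, 5226 (47.0%) were called at an adjusted p under 0.05, 2734 (24.6%) higher and 2492 (22.4%) lower at 3 d. With the GC offset 4073 of 11112 genes (36.7%) were called, 1818 (16.4%) higher and 2255 (20.3%) lower, and 3259 genes were called in both fits, 3237 of them in the same direction. These shares are the background against which counts of list members are read. A gene was tested when its FPKM reached 1 in at least 3 of the 27 libraries, so a gene could enter through the time at which it was high, and members under that filter are counted apart. In 5955 genes (53.6%) the 3 libraries of one time did not overlap with the 3 of the other. The 12 largest rises and the 12 largest falls named below were picked among genes without overlap. Their separation was therefore set by the choice and is no support of its own. Differences of at least 2-fold were called for 2527 genes, 1521 higher and 1006 lower. On deposited FPKM (fragments scaled to transcript length and library size), tested with limma on log2(FPKM + 1), 68.6% of 4588 calls were higher at 3 d, against 52.3% of the calls on counts, and the median log2 fold change over all genes was 0.16 against 0.04. Adjusted p-values are from the quasi-likelihood F test of edgeR with Benjamini-Hochberg adjustment unless another tool is named.

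**Figure D2:**
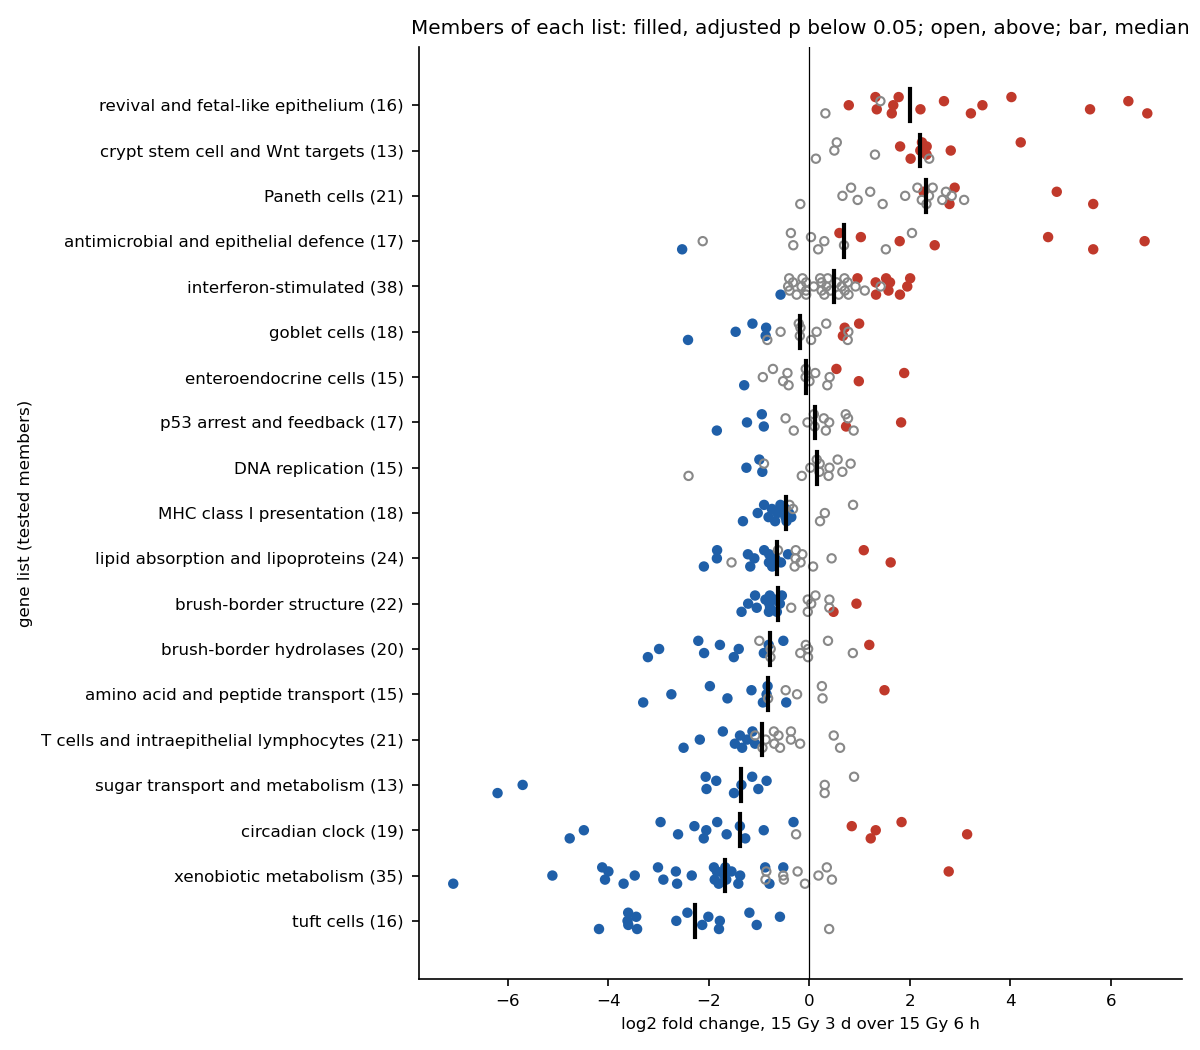
Log2 fold change of 15 Gy 3 d over 15 Gy 6 h (horizontal) for each tested member of 19 gene lists (vertical, with the number tested). Filled points passed the test, red higher and blue lower, open points did not, and the bar is the median. Members of the revival, stem cell and Paneth lists lie mainly to the right, and those of the tuft, xenobiotic, clock and sugar lists mainly to the left.

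Genes of sugar digestion and uptake were lower at 3 d. In the list of sugar transport and metabolism, 10 of 13 tested members fell, none rose, and the median log2 fold change was -1.35 (10 lower, 1 higher and -1.42 with the GC offset). Lct encodes lactase, the brush-border enzyme that splits milk sugar (ENSMUSG00000026354, chr1:128284756-128328318 on GRCm38, minus strand). Its level was 5051, 4298 and 3696 CPM in the 3 libraries at 6 h and 550.2, 474 and 383 CPM at 3 d. Every library at 3 d lay far below every library at 6 h, a fall by 3.21 ± 0.22 on the log2 scale (SE, adjusted p = 1.7e-09). The control held 2765 ± 385 CPM (SD, n = 3) and the 24 h libraries 3150.1 ± 146 CPM (SD, n = 3), so the low level was seen at 3 d and not at 24 h. Slc5a4b and Slc5a4a, neighbouring genes of the sodium and glucose cotransporter family, were 2 of the 3 steepest falls named. Slc5a4b (chr10:76057494-76110961) went from 115, 84.0 and 83.0 CPM to 0.962, 1.44 and 1.42 CPM, 73.8-fold lower. Slc5a4a went from 241, 125 and 94.2 CPM to 2.13, 3.23 and 3.45 CPM, 52.2-fold lower. The groups overlapped in neither gene, which was a condition for naming the largest falls. How the counting split reads between such close copies is not given in the sources used here, and the same limit holds for the Ugt2b, Cyp2, Ces2, Defa, Gml, Ly6, Sprr2 and haemoglobin genes below. The main intestinal glucose carrier Slc5a1 fell from 8429 ± 884 to 2980.0 ± 714 CPM (SD, n = 3 each, log2 fold change -1.50 ± 0.18, adjusted p = 9.4e-07). Khk, the kinase that commits fructose to metabolism, fell from 419.7 ± 57.2 to 116 ± 5.54 CPM, and Slc2a7, a hexose carrier, fell from 57.3 ± 11.8 to 13.7 ± 0.989 CPM. Both kept their groups apart, with adjusted p = 3.7e-09 and 1.3e-06.

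Brush-border hydrolases and the structural proteins of microvilli fell less steeply. Of 20 tested hydrolases 10 fell, 1 rose and 9 were not called, with a median of -0.79 (12 lower, none higher and -1.01 with the GC offset), and 7 were called in all without the first library at 3 d. Besides lactase the leading members were Ace, the angiotensin-converting enzyme of the villus, at 6671, 6936 and 5782 CPM at 6 h against 1719.9, 1926 and 2001 CPM at 3 d. Trehalase (Treh), which splits trehalose, stood at 1476, 1352 and 1826 CPM against 655, 515 and 471 CPM. Neither gene overlapped between the times, and the log2 fold changes were -1.78 ± 0.21 and -1.50 ± 0.18. The peptidases Ggt1 and Mme fell by 1.41 and 0.91. Sucrase-isomaltase (Sis) was not called as counted, at 2744, 2526 and 1203 CPM against 724, 1468 and 1589.8 CPM with overlapping libraries (log2 fold change -0.78 ± 0.33, adjusted p = 0.061). With the GC offset Sis was called lower (log2 fold change -1.54, adjusted p = 0.00072), as it was without the third library at 6 h (-1.06, adjusted p = 0.014) or the third at 3 d (-0.98, adjusted p = 0.044). Among 22 tested structural genes of the brush border 13 fell and 2 rose, with a median of -0.62 (10 lower, 3 higher and -0.41 with the GC offset). The motor proteins Myo7b and Myo1a fell by 1.35 ± 0.12 and 1.08 ± 0.11, the scaffolds Ush1c and Pdzk1 by 0.78 and 1.22, and villin (Vil1) by 0.79. These 5 genes kept all libraries at 3 d under all libraries at 6 h.

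Amino acid and peptide carriers showed 9 of 15 tested members lower and 1 higher, with a median of -0.83 (10 lower, 1 higher and -0.70 with the GC offset). Slc7a8, a basolateral exchanger of neutral amino acids, was at 1289, 1169 and 799 CPM at 6 h and 132, 159 and 195 CPM at 3 d. Slc6a20a, which carries proline, was at 201, 170.5 and 223 CPM and 21.1, 23.6 and 15.4 CPM. The groups were apart in both genes, with log2 fold changes of -2.75 ± 0.20 and -3.31 ± 0.43. Slc3a2, the shared heavy chain of several exchangers, fell by 1.63 and Slc16a10, a carrier of aromatic amino acids, by 1.15. The member that rose was Slc38a2, a glutamine carrier known to respond to amino acid shortage, from 9.93 ± 1.51 to 28.0 ± 0.290 CPM (SD, n = 3 each, adjusted p = 5.0e-05).

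Genes of lipid handling were mixed but more often lower. Of 24 tested members of lipid absorption and lipoprotein assembly 13 fell and 2 rose, with a median of -0.65 (13, 2 and -0.70 with the GC offset). The list summed to 136024 to 161842 CPM at 6 h and 84366 to 121597 CPM at 3 d. In the control it summed to 104010 to 127172 CPM, under the 6 h libraries and overlapping those at 3 d. Npc1l1, the cholesterol importer of enterocytes, fell from 1701 ± 335 to 476 ± 171 CPM, and Dgat2, which completes triglyceride synthesis, fell from 2333 ± 585 to 652 ± 76.6 CPM (SD, n = 3 each). Cideb, Mogat2 and the fatty acid carrier Slc27a4 fell by 1.22, 0.90 and 1.18. In fat oxidation and ketogenesis under PPAR-alpha 10 of 21 fell and 3 rose (9 and 3 with the GC offset). There Acadvl, Acadm and Cpt2, enzymes of mitochondrial fat oxidation, and the transcription factor Creb3l3 fell by 0.78 to 1.18, whereas the carnitine carrier Slc25a20 rose by 1.35 ± 0.21. In sterol synthesis 7 of 24 fell, 1 rose and 16 were not called (8 and none with the GC offset), a share of lower members near the background. Srebf1, a transcription factor of fatty acid synthesis, fell from 107 ± 17.7 to 35.1 ± 2.56 CPM within a list where 2 of 11 fell and 1 rose.

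Gluconeogenic genes held some of the steepest falls. Of 12 tested, 7 fell and 2 rose, with a median of -0.59 (5 lower, none higher and -0.49 with the GC offset). Pck1, the enzyme of the first committed step, was at 902, 1459.5 and 680.1 CPM at 6 h and 24.6, 73.0 and 119 CPM at 3 d. Fbp1, fructose bisphosphatase, was at 48.0, 28.0 and 37.6 CPM and 1.53, 1.42 and 2.26 CPM. Neither gene overlapped, and the falls were 3.81 ± 0.65 and 4.45 ± 0.34 (adjusted p = 6.4e-05 and 3.7e-09). At 24 h Pck1 was at 362 ± 201 CPM, between the 6 h and 3 d means, and Fbp1 was at 26.2 ± 10.6 CPM (SD, n = 3). The glucose 6-phosphate carrier Slc37a4 and the phosphatase G6pc fell by 2.50 and 1.87.

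**Figure D3:**
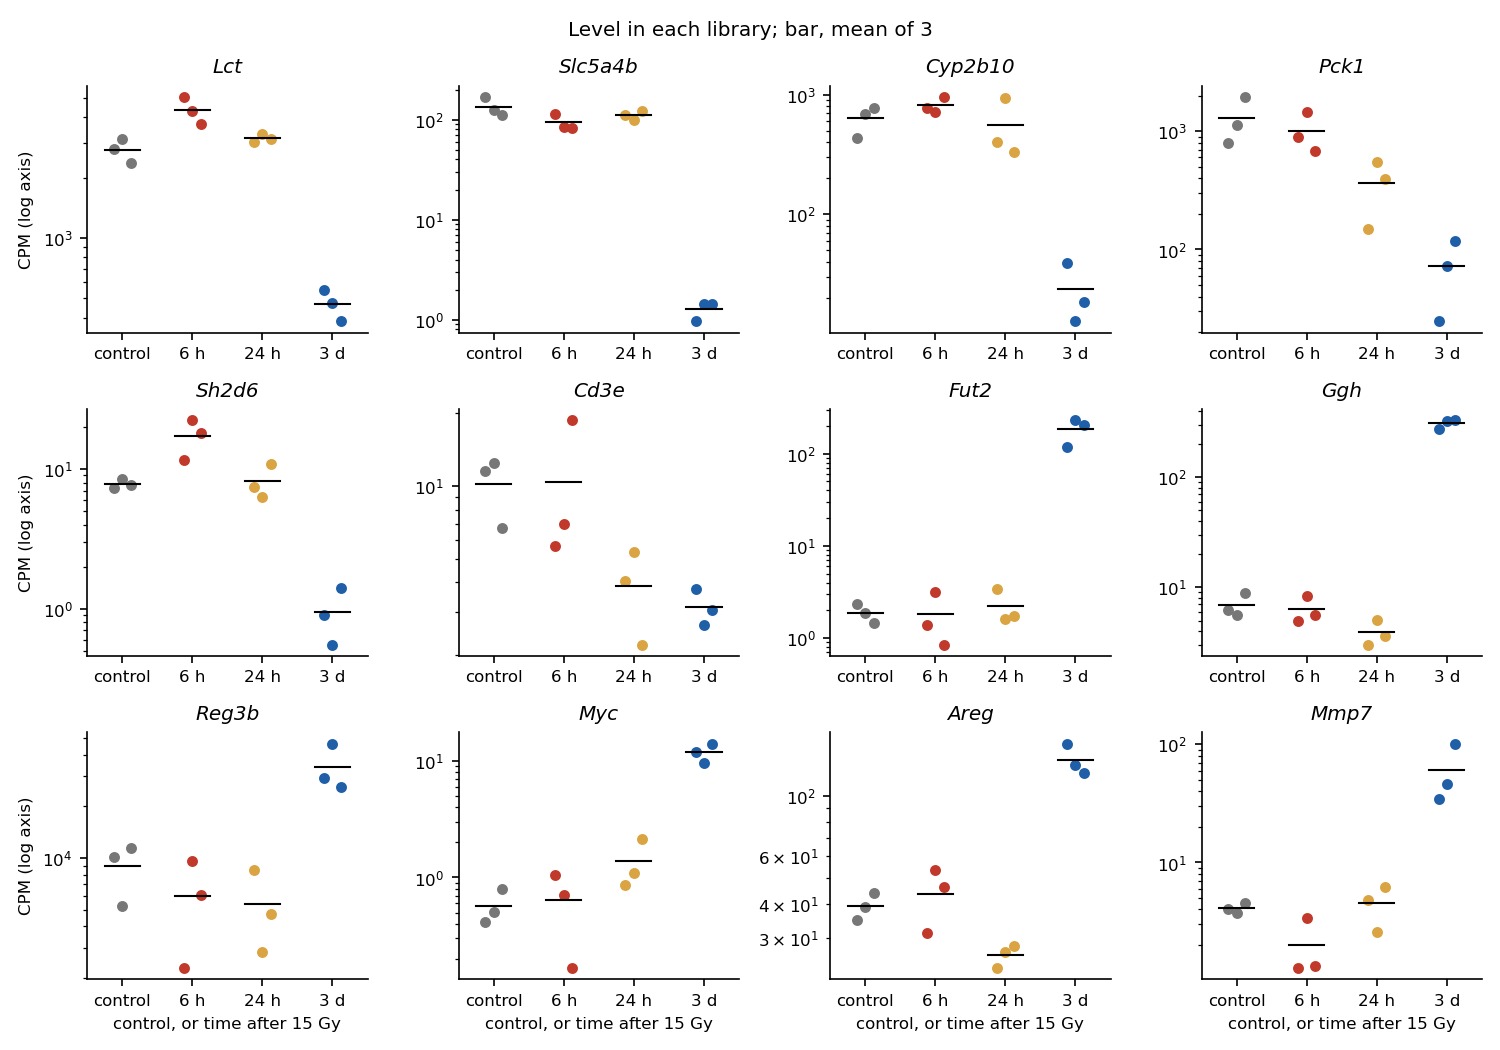
Level of 12 genes (vertical, CPM on log axes that differ between panels) in each library of the control and of 15 Gy at 6 h, 24 h and 3 d (horizontal), with the bar at the mean of 3 libraries. In all 12 panels the 3 libraries at 3 d lie apart from the 3 at 6 h, below them in the first 6 panels and above them in the last 6. The panels are a choice among the named genes, with falls first. Named genes whose libraries overlap, such as Sis, Clu, Cdkn1a and Mki67, are left out, so the separation in every panel follows from that choice.

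Genes of xenobiotic metabolism were lower at 3 d: 25 of 35 tested fell, 1 rose and 9 were not called, with a median of -1.67 (29 lower, 1 higher and -1.96 with the GC offset). Cyp2b10, a cytochrome P450 known as the classic target of the nuclear receptor CAR, stood at 769, 717 and 953 CPM at 6 h and 39.3, 12.6 and 18.6 CPM at 3 d (chr7:25897620-25926624). The lowest library at 6 h was above the highest at 3 d by a wide margin, and the mean was 34.6-fold lower (log2 fold change -5.11 ± 0.44, adjusted p = 1.5e-08). Control and 24 h libraries held 634 ± 177 and 559 ± 330.4 CPM (SD, n = 3 each). The glucuronosyltransferases, which couple drugs and bilirubin to glucuronic acid, moved the same way. Ugt1a1 fell from 517 ± 119.6 to 64.0 ± 36.2 CPM and Ugt2b34 from 537 ± 87.2 to 146 ± 17.5 CPM. Ugt2b5 had the largest fitted fall of the genes named, from 20.8, 8.68 and 12.5 CPM to 0.308, 0 and 0 CPM. With 2 libraries at 0 its size is loosely set: the log2 fold change was -7.09 ± 1.15, and -13.04 without the first library at 3 d. Cyp2c68 and the carboxylesterase Ces2e fell by 2.63 and 1.38. Among genes of oxidative defence under NRF2, 9 of 24 fell and 3 rose (11 and 3 with the GC offset). Catalase (Cat), Gpx4 and Sod1 fell by 1.49, 1.54 and 0.91, and Prdx6, a peroxiredoxin, rose by 1.51.

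The other steep falls were carriers and enzymes of vitamin, amine and ion handling. Rdh7, a retinol dehydrogenase, was at 314, 148 and 203 CPM at 6 h and 5.03, 6.00 and 2.59 CPM at 3 d. Bco1, which splits beta-carotene, was at 17.4, 50.4 and 12.3 and 1.69, 0.995 and 0.623 CPM, and was already at 1.70 ± 1.13 CPM (SD, n = 3) at 24 h. Maob, which oxidizes amines, was at 125, 96.4 and 52.4 and 1.78, 3.25 and 4.46 CPM. The groups were apart in each of these genes, which was a condition for naming the largest falls. Slc23a1, a carrier of vitamin C, fell by 4.78, Car4, a membrane carbonic anhydrase, by 4.75, and Otop3, a proton channel, by 4.63 ± 1.32. Aqp1, a water channel, fell from 314 ± 106 to 19.7 ± 5.41 CPM, and Slc9a3, the sodium and proton exchanger of the brush border, rose from 169 ± 31.7 to 729 ± 12.1 CPM (SD, n = 3 each), in a list of ion and water transport where 7 of 25 fell and 2 rose. Cubn and Amn, the receptor pair for vitamin B12 bound to intrinsic factor, fell by 3.94 and 2.50.

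Lists that mark a position along the gut also moved. Of 16 tested markers of the proximal small intestine 9 fell and 2 rose (7 and 1 with the GC offset, median -0.60 and -0.25). Of 13 tested markers of the distal small intestine and colon 5 fell and 1 rose (6 and 1 with the GC offset, median -0.88 and -1.02). Adh1 and Aldh1a1, which make retinal and retinoic acid, fell by 2.55 and 4.27 in the first list, and Ces2a and Naprt fell by 4.07 and 1.45 in the second. Log2 fold changes ran from -6.20 to 5.14 in the first list. It summed to 70950 to 87207 CPM at 6 h and 40562 to 56955 CPM at 3 d. The control held 41972 to 53407 CPM and the 24 h libraries 42499 to 56476 CPM, so 6 h was the group apart. The second list summed to 4326 to 9520 CPM at 6 h, 6759 to 14707 CPM at 3 d and 6685 to 11869 CPM in the control. The part of segment sampled in the differences above was not tested.

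**Figure D4:**
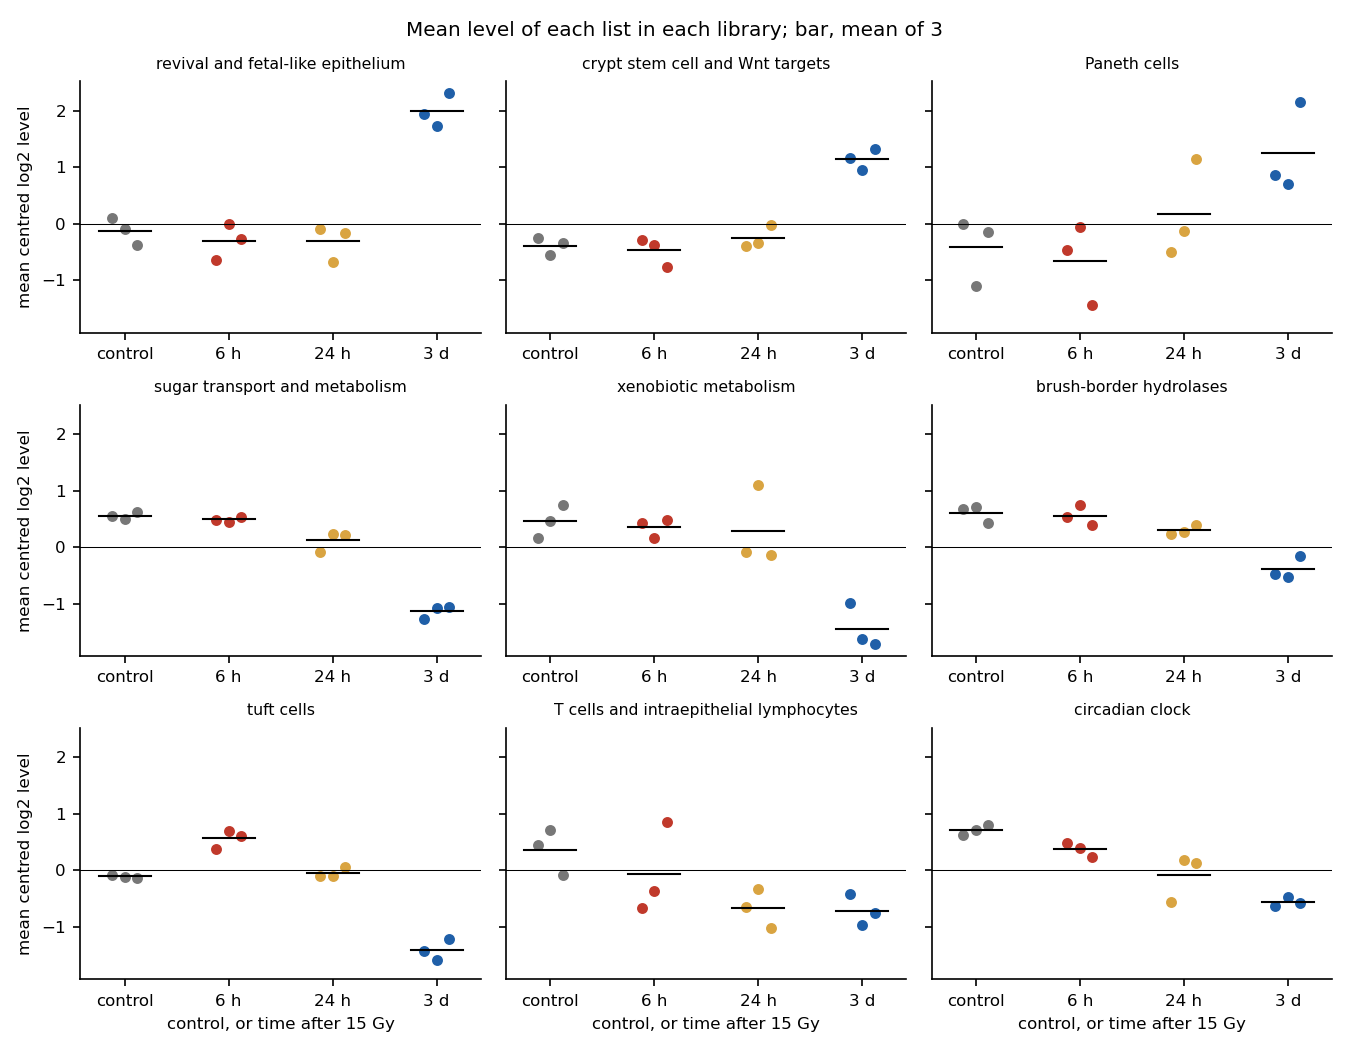
Mean level of the tested members of 9 lists in each library (vertical, log2(CPM + 0.5) centred on each gene's mean over all 27 libraries) for the control and 15 Gy at 6 h, 24 h and 3 d (horizontal), with the bar at the mean of 3. The libraries at 3 d lie above those at 6 h for the revival, stem cell and Paneth lists and below for the sugar, xenobiotic, hydrolase, tuft and clock lists, while those of the T cell list overlap.

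Genes of the regenerating, fetal-like epithelium were higher at 3 d. Of 16 tested members of that list 14 rose and none fell, with a median of 1.99 (14, none and 2.01 with the GC offset). The 22 listed genes summed to 825 to 1306 CPM at 6 h and to 1562 to 2481 CPM at 3 d, against 1117 to 1697 CPM in the control. Areg encodes amphiregulin, a ligand of the EGF receptor. It was at 31.2, 53.5 and 46.1 CPM at 6 h and 156, 130.1 and 121 CPM at 3 d, with no overlap (log2 fold change 1.64 ± 0.20, adjusted p = 1.5e-06). Ly6a, the Sca-1 antigen that marks fetal-like crypts after injury, was at 2.16, 2.65 and 4.29 CPM and 26.1, 31.8 and 41.0 CPM, again with no overlap. Sprr2a3, a small proline-rich protein of stressed epithelium, rose from 74.3 ± 11.1 to 475 ± 151 CPM (SD, n = 3 each). Ajuba, a LIM protein of the Hippo pathway, and Anxa3 rose by 1.67 ± 0.27 and 2.21 ± 0.36. Clu, which marks the revival stem cell, was at 5.34, 43.7 and 6.69 CPM at 6 h and 32.0, 46.2 and 70.1 CPM at 3 d and was not called (log2 fold change 1.41 ± 0.70, adjusted p = 0.1). Its second library at 6 h lay within the range at 3 d, and without that library Clu was called higher, by 3.05 (adjusted p = 0.0015).

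Stem cell genes and targets of Wnt signalling rose beside them. Of 13 tested members 8 rose and none fell, with a median of 2.21 (9, none and 1.79 with the GC offset), and 10 further members were under the filter on low values. Myc, the growth regulator that Wnt induces in crypts, was at 1.05, 0.712 and 0.167 CPM at 6 h and 11.9, 9.66 and 14.1 CPM at 3 d. Axin2, a feedback inhibitor and standard readout of Wnt signalling, was at 7.69, 11.1 and 8.14 CPM and 66.6, 43.0 and 79.9 CPM. Neither gene overlapped, and the rises were 4.20 ± 0.72 and 2.81 ± 0.55 (adjusted p = 6.9e-05 and 0.00025). In control libraries Myc was at 0.572 ± 0.195 and Axin2 at 16.1 ± 9.50 CPM (SD, n = 3). Sox9, a crypt transcription factor, rose from 3.10 ± 1.11 to 15.6 ± 0.825 CPM and Prom1, a surface protein of crypt cells, from 11.9 ± 3.59 to 56.3 ± 17.7 CPM. Bmi1, a Polycomb protein of reserve stem cells, rose by 2.01 ± 0.16 and by 1.19 with the GC offset. The markers of the cycling stem cell were too low to read: Lgr5 was at 0.105, 0.148 and 0.237 CPM at 6 h and 0.370, 0.384 and 0.432 CPM at 3 d and was not tested, and Olfm4 was at 0.504 ± 0.437 and 1.25 ± 0.687 CPM (SD, n = 3, adjusted p = 0.42).

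The steepest rises came from near silence at 6 h. Anxa10, an annexin of gastric epithelium (chr8:62057042-62123118), had 18 counts over the 3 libraries at 6 h and 7044 at 3 d, or 0, 0.107 and 0.139 CPM against 30.4, 26.1 and 28.9 CPM. Its 3 d libraries lay close together, while the fold is uncertain because of the few counts at 6 h (log2 fold change 8.42 ± 1.67, adjusted p = 0.00031). Fut2, the fucosyltransferase that decorates the epithelial surface with fucose (chr7:45648591-45666394), was at 1.38, 3.18 and 0.851 CPM at 6 h and 119, 229 and 205 CPM at 3 d. Ggh, the gamma-glutamyl hydrolase that clears polyglutamate tails from folate (chr4:20042052-20066750), was at 4.96, 8.30 and 5.62 CPM and 274, 325 and 327 CPM. Both genes were also low in control and at 24 h, where Fut2 was at 1.89 ± 0.434 and 2.25 ± 1.01 CPM and Ggh at 6.91 ± 1.68 and 3.92 ± 1.06 CPM (SD, n = 3 each). The mean rises were 102-fold for Fut2 and 49.1-fold for Ggh (adjusted p = 9.1e-09 and 9.0e-10). Inf2, a formin that remodels actin, went from 0.379, 0.672 and 1.23 CPM to 30.2, 40.7 and 31.8 CPM. Cybrd1, the ferric reductase of the duodenal brush border, went from 2.39, 1.44 and 13.9 CPM to 331, 172 and 123 CPM. Both were apart between the times, a condition for naming the largest rises, Inf2 with little spread at 3 d and Cybrd1 with a wide one. Ldhd, a lactate dehydrogenase of mitochondria, rose by 4.72 ± 0.56, Atg9b, an autophagy protein, by 6.11 ± 1.27, and Slfn4, a Schlafen family gene, by 5.57 ± 0.67. Ly6d, Gml and Gml2, neighbours in the cluster of Ly6 surface protein genes on chromosome 15, rose by 5.58, 4.68 and 4.64.

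Some secreted defence genes were higher at 3 d, while the share of Paneth cell genes called higher was close to that of all genes. Of 17 tested members of antimicrobial and epithelial defence 7 rose, 1 fell and 9 were not called, with a median of 0.69 (4 higher, 1 lower and 0.55 with the GC offset). Reg3b, a secreted lectin that binds bacteria (chr6:78370657-78373466), was at 2287, 9601 and 6085 CPM at 6 h and 29045, 46269.5 and 25876 CPM at 3 d. The groups did not overlap, and the mean was 5.63-fold higher (adjusted p = 0.00013, log2 fold change 2.49 ± 0.46 and 2.11 with the GC offset). Its neighbour Reg3g rose by 1.80 ± 0.46 as counted, and was not called with the GC offset (1.09, adjusted p = 0.067). Reg3a of the same family fell, from 208, 154 and 197 CPM to 24.4, 40.0 and 32.3 CPM (log2 fold change -2.53 ± 0.34). Among Paneth cell genes 5 of 21 tested rose and none fell, with a median of 2.33 (5, none and 2.21 with the GC offset), and 16 were not called. That count of 5 in 21 is close to the 24.6% of all tested genes called higher. Without the third library at 6 h, or without the third at 3 d, 3 rose. Lyz1, Paneth lysozyme, was at 39.2, 38.6 and 20.3 CPM and 198, 169.6 and 360.3 CPM, and Mmp7, the protease that activates defensins, at 1.28, 3.40 and 1.34 and 34.3, 46.6 and 102 CPM. In both the third library at 3 d was the highest of all 6. Pla2g2a, a secreted phospholipase, rose from 0.197 ± 0.226 to 10.0 ± 4.12 CPM, and the defensins Defa17 and Defa24 rose by 2.79 ± 0.94 and 2.27 ± 0.84. Neither defensin was called without the third library at 3 d (2.25 and 1.85, adjusted p = 0.073 and 0.1) or without the third at 6 h (2.44 and 2.11, adjusted p = 0.078 and 0.095), nor was Defa24 without the first at 6 h (2.11, adjusted p = 0.092).

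Goblet and enteroendocrine genes moved in both directions. Of 18 tested goblet genes 3 rose and 5 fell (2 and 3 with the GC offset), and leaving out single libraries gave 0 to 2 higher and 3 to 6 lower. Muc2, the main gel-forming mucin, was at 1131 ± 340.2 CPM at 6 h and 999.8 ± 267 CPM at 3 d and was not called (SD, n = 3, adjusted p = 0.72), Tff3, a trefoil peptide, fell by 1.13, and the membrane mucin Muc13 rose by 0.67, though not without the third library at 3 d (0.43, adjusted p = 0.05). Of 15 tested enteroendocrine genes 3 rose and 1 fell (2 and 1 with the GC offset, 2 and 3 without the first library at 3 d), among them the hormone secretin (Sct), which fell from 26.3 ± 6.65 to 10.7 ± 2.23 CPM, and carboxypeptidase E (Cpe), which rose by 1.89.

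Genes of tuft cells, the chemosensory cells of the epithelium, were lower at 3 d. Of 16 tested markers 15 fell and none rose, with a median of -2.28 (14 lower, 1 higher and -2.30 with the GC offset), and 9 of the 25 listed were under the filter. Alox5ap, which serves leukotriene synthesis, was at 6.02, 6.17 and 6.92 CPM at 6 h and 0.407, 0.588 and 0.572 CPM at 3 d. Sh2d6, an adaptor protein, was at 11.6, 22.3 and 18.1 CPM and 0.901, 0.554 and 1.40 CPM. In both, each library at 6 h was several times above each at 3 d (log2 fold change -3.60 ± 0.24 and -4.19 ± 0.42). The lectin Siglecf and the actin regulator Avil fell by 3.45 and 2.13. The 6 h level of Alox5ap was itself above control, at 2.53 ± 0.580 CPM in control and 6.37 ± 0.480 CPM at 6 h (SD, n = 3 each), without a test. Chosen after their values were seen, the defining markers Dclk1 and Pou2f3, both under the filter, stood at 9.15 ± 2.27 and 2.64 ± 1.01 CPM at 6 h and at 0.979 ± 0.590 and 0.164 ± 0.0636 CPM at 3 d. The 1 tested marker not called was the ion channel Trpm5, at 22.1 ± 2.48 and 29.1 ± 12.3 CPM (adjusted p = 0.23). In whole tissue, fewer cells of a type and less RNA of its genes per cell cannot be told apart.

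Lymphocyte genes were lower at 3 d, in good part against 1 library at 6 h. Of 21 tested genes of T cells and intraepithelial lymphocytes 9 fell and none rose, with a median of -0.93 (8 lower, none higher and -1.04 with the GC offset). Without the third library at 6 h, 3 members fell and the median was -0.21, and leaving out the second or the third library at 3 d left 3 and 4. Cd3e, a chain of the T cell receptor complex, was at 5.64, 7.00 and 18.7 CPM at 6 h and 3.76, 2.66 and 3.08 CPM at 3 d (log2 fold change -1.72 ± 0.42, adjusted p = 0.002). The third library at 6 h was the highest, the other two lay just above the range at 3 d, and without the third Cd3e fell by 0.99 (adjusted p = 0.041). Gzmk and Nkg7, products of cytotoxic cells, fell by 2.50 and 2.18, and by 1.24 and 1.56 without that library. Cd3d, another chain of the receptor complex, fell by 1.34, but was not called without it (-0.93, adjusted p = 0.12) or without the second library at 3 d (-1.09, adjusted p = 0.085). Ccl5, a chemokine of such cells, was at 32.0, 47.4 and 172 CPM and 26.4, 17.2 and 16.9 CPM, the same library again highest, and its fall by 2.05 was not called without that library (-0.98, adjusted p = 0.07). Ccl25, the chemokine with which the small intestine attracts lymphocytes, fell from 509 ± 55.2 to 243 ± 29.4 CPM (SD, n = 3 each). Genes of presentation on MHC class I fell in 13 of 18 tested, none rose, and the median was -0.47, but with the GC offset 7 fell and the median was -0.25, and without the third library at 6 h 8 fell and the median was -0.38. H2-Q1, Tapbp and H2-T23 fell by 0.81, 1.32 and 0.75. The class I list summed to 14405 to 19601 CPM at 6 h and 9388 to 11800 CPM at 3 d, with 11904 to 13301 CPM in the control, between the 2 times. For MHC class II 1 of 10 tested fell, the lysosomal reductase Ifi30, by 1.80 ± 0.12.

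Interferon-stimulated genes and innate sensors held fewer calls than the background. Of 38 tested interferon-stimulated genes 9 rose and 1 fell, and with the GC offset 4 rose and none fell. This count turned on single libraries: 20 rose without the third library at 6 h, the one with the high lymphocyte genes, and 3 rose without the first or the second at 6 h or without the first at 3 d. Ifih1, a sensor of double-stranded RNA, rose from 88.3 ± 21.1 to 220.3 ± 41.2 CPM, but by 1.32 as counted and 0.63 with the GC offset. Mx1, an antiviral GTPase, rose by 1.33 and 1.07 in the same order. Of 19 tested genes of NF-kB signalling, cytokines and chemokines 4 rose and 2 fell (3 and 3 with the GC offset). Naip1 and Nlrc4, the receptor and adaptor of an inflammasome that senses bacterial proteins, rose by 1.92 ± 0.29 and 1.24 ± 0.12, and Nfkbiz, a regulator of NF-kB targets, by 1.65 ± 0.23. In these 3 genes the 6 h mean was under the control mean and the 3 d mean above it, as for Nlrc4 at 64.5 ± 9.18 CPM in control, 33.5 ± 3.76 at 6 h and 79.1 ± 6.25 at 3 d (SD, n = 3 each).

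Markers of other cell types that tissue could hold are given for the whole lists. Neutrophil genes summed to 6.04 to 11.7 CPM at 6 h and 20.7 to 27.7 CPM at 3 d, with 2 of 3 tested higher and 12 of 15 under the filter. Ly6g, which defines neutrophils, had no count in the 3 libraries at 6 h, nor in control and at 24 h, and was at 0.790, 0.599 and 0.610 CPM at 3 d. Taking 3 counts over the group at 6 h as the limit of detection, it was at least 49.5-fold higher (adjusted p = 4.6e-05). The pancreatic list summed to 3754 to 7872 CPM at 6 h and 2999.5 to 3648 CPM at 3 d. Of its 25 tested genes 15 had no count at 6 h and 12 none at 3 d, so the sum rests on the remaining members and does not speak for the whole list. The 1 called, Zg16, which goblet cells also make, was not called with the GC offset. The share of Zg16 in the sum is not given here. Haemoglobin genes fell in 3 of 4 tested, and the erythrocyte list summed to 6.30 to 15.3 CPM at 6 h and 0.259 to 3.00 CPM at 3 d, with 1 member called lower when either the first or the second library at 3 d was left out. Of 12 tested macrophage and dendritic cell genes 1 fell, Cd14, and none rose, although 4 rose without the first library at 6 h, and the list summed to 33.8 to 55.9 and 41.1 to 56.2 CPM. Of 8 tested B and plasma cell genes 1 rose, Prdm1, and none fell, and the list summed to 201 to 414 and 205 to 979 CPM. The structural lists had few tested members: 6 for fibroblasts (2 higher, 1 lower), 10 for smooth muscle (2 and 1), 3 for endothelium (1 and none), and 1 for enteric neurons and glia, Ret, which rose from 6.92 ± 5.23 to 46.0 ± 9.95 CPM (SD, n = 3 each). The fibroblast list summed to 597 to 667 CPM at 6 h and 218 to 265 CPM at 3 d, lower without overlap. It summed to 318 to 337 CPM in the control and 330 to 368 CPM at 24 h, so the 6 h libraries lay above both. Most of the sum at 6 h and 3 d was Fbln1, a matrix protein, which fell from 623 ± 32.3 to 227 ± 18.8 CPM (SD, n = 3 each). The members that rose, the collagen Col3a1 and the matrix protein Sparc, were at 2.21 ± 2.01 and 1.87 ± 1.60 CPM at 3 d (SD, n = 3 each). Smooth muscle genes summed to 111 to 136 and 121 to 148 CPM, and those of neurons and glia to 4.87 to 15.1 and 38.3 to 57.3 CPM. Most of the latter sum was Ret, and 13 of the 14 genes of neurons and glia were under the filter. Of 13 listed genes of adipocytes and mesentery 4 were tested, Msln rose and Cidec, a protein of lipid droplets, fell from 319 ± 114 to 149 ± 17.8 CPM (SD, n = 3 each). That list summed to 208 to 404 CPM at 6 h and 157 to 197 CPM at 3 d, lower without overlap, and the adipocyte markers Adipoq and Plin1 were at 0 at both times. The endothelial list summed to 5.31 to 13.4 CPM at 6 h and 13.8 to 27.5 CPM at 3 d and held Tie1, a receptor of vessel cells, which rose by 4.59 ± 1.01. What part changes in these cells have in the results above was not tested.

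The p53 response and the cell cycle separated the times little. Of 17 tested genes of p53 arrest and feedback 2 rose and 4 fell, and of 13 of p53 apoptosis 2 rose and 1 fell. Without the second library at 6 h 4 of the arrest genes rose, and without the second at 3 d 5 rose. Cdkn1a, the p53 target that arrests the cycle, was at 409, 631 and 608 CPM at 6 h and 413, 364 and 552 CPM at 3 d, overlapping and not called (adjusted p = 0.17), with 413 ± 10.9 CPM in control (SD, n = 3). It was called lower without the first library at 6 h (-0.48, adjusted p = 0.038) or without the third at 3 d (-0.50, adjusted p = 0.041). Mdm2, the ubiquitin ligase that limits p53, was at 36.3 ± 7.23 and 47.7 ± 6.16 CPM (SD, n = 3, adjusted p = 0.068), and was called higher without the second library at 6 h (0.54, adjusted p = 0.026) or the second at 3 d (0.49, adjusted p = 0.043). Ccng1, another p53 target, was called higher at 3 d as counted, by 0.73 ± 0.15 (adjusted p = 0.0004), and not with the GC offset, where its log2 fold change was -0.04 (adjusted p = 0.84). Its levels were 19.5 ± 2.38 CPM in control, 52.6 ± 13.1 at 6 h, 108 ± 9.06 at 24 h and 87.3 ± 12.7 at 3 d (SD, n = 3 each), so irradiated groups all lay above control. Sesn1, a stress-induced inhibitor of growth signalling, fell from 88.8 ± 34.5 to 24.8 ± 4.11 CPM and Sesn2 from 21.8 ± 2.07 to 11.6 ± 1.34 CPM. Apaf1, the scaffold of the apoptosome, rose by 1.20, and Bax fell by 0.45, the latter not called with the GC offset, nor without the first or second library at either time (adjusted p = 0.11 to 0.18). Of 15 tested genes of DNA replication 3 fell, among them Mcm6 by 1.25 and Lig1 by 0.94, and none rose, and of 10 mitotic genes Birc5 fell and none rose. Mki67, the proliferation marker, was at 4.66, 2.53 and 1.31 CPM and 3.74, 4.77 and 9.55 CPM, overlapping (adjusted p = 0.14). Of 8 tested repair genes Xrcc5, which binds broken DNA ends, rose from 0.940 ± 0.0913 to 3.50 ± 1.14 CPM, and Ercc5, a nuclease of excision repair, rose by 0.63 as counted but was not called with the GC offset (0.36, adjusted p = 0.19) nor without the second or the third library at either time (adjusted p = 0.054 to 0.11).

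Stress-response lists were also mixed. Of 27 tested genes of the endoplasmic reticulum and integrated stress responses 3 rose and 7 fell (1 and 6 with the GC offset), and without the second library at 6 h 5 rose. Trib3, a pseudokinase induced by amino acid and reticulum stress, fell from 41.8 ± 2.82 to 7.37 ± 2.17 CPM. Of 19 tested glucocorticoid-induced and metallothionein genes 4 rose and 5 fell. Nr3c1, the glucocorticoid receptor itself, was at 70.4 ± 12.3 CPM in control, 24.9 ± 0.549 at 6 h and 68.0 ± 4.81 at 3 d (SD, n = 3 each), and rose by 1.45 ± 0.16 as counted and 0.74 with the GC offset. Among tight junction and adhesion genes 5 of 25 rose and 4 fell (6 and 3 with the GC offset), with Cldn4, Cldn15 and Cldn3, claudins that seal or line paracellular pores, falling by 2.21, 1.50 and 1.16.

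Circadian clock genes differed between the times in both directions. In the clock the activators Arntl (Bmal1) and Clock bind E-boxes and drive Per, Cry and Nr1d genes, whose proteins feed back, while Dbp, Tef and Hlf act on D-boxes and the REV-ERB and ROR receptors act on Arntl. Of 19 tested members 13 fell, 5 rose and 1 was not called, with a median of -1.38 (10 lower, 4 higher and -1.34 with the GC offset). Arntl (ENSMUSG00000055116, chr7:113207465-113314126, plus strand) was at 1.91, 3.01 and 4.43 CPM at 6 h and 38.1, 23.8 and 20.5 CPM at 3 d. Dbp (ENSMUSG00000059824, chr7:45705088-45710203, plus strand) was at 94.6, 53.5 and 31.7 CPM and 0.728, 4.20 and 1.65 CPM. Tef (chr15:81802421-81826863, plus strand) was at 119, 107 and 86.6 CPM and 11.9, 20.3 and 18.9 CPM. The groups were apart in all of them, with Arntl high where Dbp and Tef were low. The log2 fold changes were 3.14 ± 0.52, -4.77 ± 1.08 and -2.61 ± 0.44, with adjusted p = 4.6e-05, 0.0011 and 6.0e-05. Repressors fell as well, Per2 from 44.9 ± 7.87 to 10.5 ± 0.755 CPM and Cry2 from 22.3 ± 1.31 to 7.14 ± 0.723 CPM, and so did Usp2, a deubiquitinase under clock control, from 98.3 ± 14.9 to 23.7 ± 0.529 CPM (SD, n = 3 each). The control lay on the side of the 6 h libraries, with Arntl at 4.11 ± 1.02 and Dbp at 91.0 ± 4.76 CPM, while at 24 h the first library lay apart from the other two, with Arntl at 58.1, 15.8 and 17.3 CPM and Dbp at 0.483, 24.4 and 18.1 CPM.

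**Figure D5:**
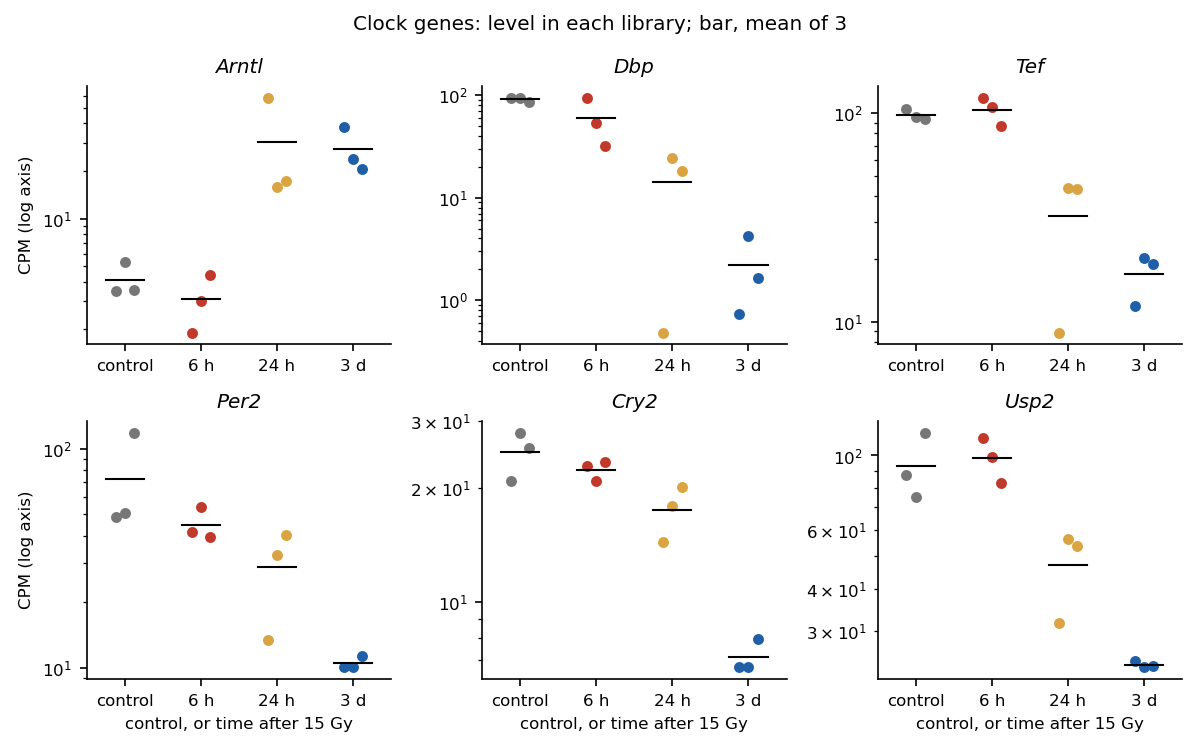
Level of 6 clock genes (vertical, CPM on log axes that differ between panels) in each library of the control and of 15 Gy at 6 h, 24 h and 3 d (horizontal), with the bar at the mean of 3. Arntl is high at 3 d and low in control and at 6 h, the other 5 genes are the reverse, and in each panel the first library at 24 h lies farther toward or past the 3 d level than the other two.

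The start regions of the clock genes that moved most in opposite directions are shown because their known control elements are of the kind that links these genes to each other. Windows of 300 bases, from 250 before to 50 after the start, were taken from RefSeq on GRCm38.p6, where 17 clock genes had 22 windows. Both strands were searched for the E-box CACGTG, the D-box pattern TTANNTAA and the ROR or REV-ERB element AGGTCA, and capitals mark the matches. The D-box pattern is a loose one, as its middle bases (N) may be any base, and D-box below means a match to it. AGGTCA was searched without regard to the bases beside it, so ROR or REV-ERB element below means only a match to these letters.
Arntl, chr7:113207261-113207560, plus strand: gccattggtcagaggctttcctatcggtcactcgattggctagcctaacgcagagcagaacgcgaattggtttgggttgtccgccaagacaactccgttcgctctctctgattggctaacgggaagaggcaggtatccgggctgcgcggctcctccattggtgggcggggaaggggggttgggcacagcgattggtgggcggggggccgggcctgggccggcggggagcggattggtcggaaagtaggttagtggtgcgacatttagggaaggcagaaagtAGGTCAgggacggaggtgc
Tef, chr15:81802423-81802722, plus strand: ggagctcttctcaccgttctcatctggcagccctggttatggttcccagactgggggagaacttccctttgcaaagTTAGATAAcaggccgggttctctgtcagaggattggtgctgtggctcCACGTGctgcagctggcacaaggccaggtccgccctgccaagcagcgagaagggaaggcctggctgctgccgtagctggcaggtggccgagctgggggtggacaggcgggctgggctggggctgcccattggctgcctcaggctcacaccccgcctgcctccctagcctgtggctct
Dbp, chr7:45704997-45705296, plus strand: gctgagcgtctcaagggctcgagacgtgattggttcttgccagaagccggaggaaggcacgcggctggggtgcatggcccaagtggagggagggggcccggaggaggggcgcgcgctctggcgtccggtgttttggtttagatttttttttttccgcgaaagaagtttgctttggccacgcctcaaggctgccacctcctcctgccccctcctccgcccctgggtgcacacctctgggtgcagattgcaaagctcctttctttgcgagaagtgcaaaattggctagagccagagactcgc
The Arntl window, the second of 2 starts, held 1 AGGTCA, which overlaps no other match. The Tef window, the first of 2, held 1 match to the D-box pattern, TTAGATAA, and 1 E-box. The other Arntl window, at the start of the gene as given above, held none of the searched letters, and the other Tef window held 1 E-box. None of the searched letters lie in the Dbp window. Over all 32851 RefSeq windows the E-box was present in 7.15%, the D-box in 6.00% and the ROR or REV-ERB element in 16.3%. Of the 17 clock genes 5 had an E-box, 2 a match to the D-box pattern and 5 a ROR or REV-ERB element in at least 1 window. These counts are per gene over 22 windows, so they cannot be set against the shares of windows before them.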

How the data were processed

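Intestinal RNA of 27 libraries was deposited as 1 table. Whole-number counts per gene were deposited by the authors with no normalization visible in the values, and their FPKM values stand beside them, with 0.0001 in place of 0. Per the submitters' processing notes, Bowtie 0.12.2, HISAT2 2.0, StringTie 1.3.0 and the build mm8 were used. The way reads were counted, the strand setting and the annotation release were not given in the sources used here. Start and end matched GRCm38 (GENCODE vM21) for 51957 of 55141 identifiers (94.2%), so positions are on GRCm38.

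The 11118 genes (of 55401) whose FPKM reached 1 in 3 or more libraries were tested with edgeR 4.0.16 in R 4.3.3 (TMM scaling, quasi-likelihood F test, 1 mean for each of 9 groups, contrast 15 Gy 3 d minus 15 Gy 6 h, Benjamini-Hochberg over all tested genes, called under 0.05). Levels are TMM-scaled CPM. The common dispersion was a biological coefficient of variation of 31.0%, and libraries of a group differed by far more than counting error (chi-square per degree of freedom 290 to 473), so the number of libraries and not the depth limits precision. The fit was also run on simulated counts drawn with its own dispersions, which cannot show whether the real counts follow that model. Alternatives were other scaling, filters and samples, DESeq2 1.42.0, limma 3.58.1 on FPKM, and, chosen after seeing the data, offsets from a spline on transcript GC content (and length). Where a symbol had several entries, the one with the highest mean was used.

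The compared groups and the 47 gene lists were chosen with earlier results of these data known, so lists are described by counts and medians and not tested. Named genes are the 12 largest rises and falls among called genes with FPKM of at least 5 in the higher group and no overlap between the groups (predicted genes, pseudogenes and receptor segments left out), up to 5 members of each list with the smallest adjusted p, and a short set of radiation, stem cell, defence, digestion and clock genes whether called or not. Promoter windows are from RefSeq. A few single genes that the rule names are not reported here.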

Additional observations from a re-analysis of the deposited data

How the results depend on the processing

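The number of genes called stayed within 4073 to 5668 under every alternative run, against 5226, and was 4616 to 4770 with single libraries left out (2441 to 2516 higher and 2159 to 2254 lower). The split moved: 1818 genes were higher with the GC offset, and 1439 and 1484 were lower with limma on log2(FPKM + 1) and log2(FPKM + 0.1), where 68.6% and 68.7% of calls were higher against 52.3%. The limma fits used FPKM without the TMM factors, which were 0.858 to 0.919 at 6 h and 0.963 to 1.09 at 3 d. The cause was not tested. Under those limma fits the medians were 1.00 for stem cell and Wnt genes (FPKM + 1), -1.13 and -1.15 for sugar genes, -0.68 and -1.15 for clock genes, and -0.999 and -1.83 for tuft genes. A fold change on a log2 scale with a pseudocount is smaller for low genes by construction. The stem cell median was 1.79 with the GC offset and 1.67 with GC content and length, and the hydrolase median was -1.01 with the GC offset. Filtering on the 6 compared libraries left fewer genes tested and gave a clock median of -1.05, 9 tuft genes called and a tuft median of -3.39. With 1 library left out the medians ran from 2.03 to 2.44 (stem cell), 1.78 to 2.58 (revival), -0.98 to -0.73 (hydrolases), -1.56 to -1.36 (clock) and -2.51 to -2.17 (tuft), and 7 to 12 hydrolases were called, with 7 when the first library at 3 d was absent. The direction of these lists was the same in each case.

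Of 242 named genes, 19 lost their call with the GC offset and 3 gained one, and among the 19 Ccng1 changed sign (-0.0409, and -0.0021 with GC content and length), as did Bax (0.0022 with GC content and length). In the compared groups, libraries with the same replicate number did not deviate together (correlations of -0.18, -0.08 and -0.18). So few correlations cannot exclude a batch or order shared by number. With the replicate block 5179 genes were called and 4 named genes lost their call. Depth was near even and did not limit the comparison, but genes with few counts at one time, such as Anxa10 and Ugt2b5, have folds set by few reads.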

Other observations

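A cluster of Ly6 family genes, small surface proteins held by a lipid anchor, stood out on chromosome 15 (GRCm38, 74714839 to 75567216), a region picked after its values were seen. The deposited table lists 21 genes of the cluster. Of the 10 tested, 8 were higher at 3 d and none lower, with and without the GC offset, and the median log2 fold change was 3.01. The neighbours Gml, Gml2 and Ly6d went from 8.53 ± 5.37, 4.26 ± 2.29 and 1.80 ± 1.68 CPM at 6 h to 219 ± 41.1, 106 ± 13.7 and 86.5 ± 86.0 CPM at 3 d (SD, n = 3 each). Ly6e rose by 1.53 (adjusted p = 0.046), while Ly6m, at 2289 CPM at 6 h and 1941 CPM at 3 d, was not called (adjusted p = 0.74). Members of such families share sequence, and reads between them may have been split by the counting.

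A pair of list members outside the naming rule, also picked after their values were seen, rose from low levels. Cldn2, the claudin that forms a pore for sodium and water in crypts, was at 15.0, 11.3 and 3.88 CPM at 6 h and 122, 249.5 and 169 CPM at 3 d. Anxa1, an annexin released in epithelial repair, was at 0.105, 0.107 and 0 CPM and 6.74, 6.50 and 9.83 CPM. The groups did not overlap in either gene (log2 fold change 4.16 ± 1.19 and 6.72 ± 1.27, adjusted p = 0.0068 and 0.00019). Msln, mesothelin, a surface protein of mesothelium, was at 0.105, 0 and 0.112 CPM and 4.32, 4.56 and 9.08 CPM (log2 fold change 6.35 ± 1.43, adjusted p = 0.001), while Upk1b, another mesothelial gene, was at 1.44 ± 0.474 and 2.43 ± 0.571 CPM and not called (adjusted p = 0.083). The list of adipocytes and mesentery that holds both had 1 member higher and 1 lower of 4 tested, and its sum was lower at 3 d. Which cells hold this RNA was not tested.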
